A study of Mus musculus with 12 samples.

Results

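A set of 10 genes of distal tubular calcium and magnesium handling, given by name, were followed across renal cortex libraries of mice: Pvalb, Calb1, S100g, Trpv5, Trpm6, Slc8a1, Atp2b1, Atp2b4, Casr and Cnnm2. All 10 were found among the 46095 gene symbols of the deposited table, and all 10 were among the 17530 that passed the filter on low counts. RNA-seq counts per gene were available for 4 libraries each from sodium butyrate-treated diabetic nephropathy mice (DN+NaB), diabetic nephropathy mice without it (DN) and normal controls (NC). Every mouse was of strain C57BL/6 and 12 weeks old. Diabetic nephropathy is kidney disease caused by diabetes, and butyrate is a fatty acid that gut bacteria release from dietary fibre. The labels state neither how the disease was produced nor the dose, route or length of butyrate treatment, and nothing ties a library to a separate animal, so each p-value reflects only how far these libraries spread, which may be technical.

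The distal convoluted and connecting tubules set how much calcium and magnesium finally leaves in the urine. Calcium enters their cells from the tubular fluid through the channel TRPV5, crosses the cytosol bound to calbindins, and is pushed into the blood by a sodium-calcium exchanger and by plasma membrane calcium pumps. Magnesium enters through the channel TRPM6, and the calcium-sensing receptor, most abundant in the thick ascending limb, adjusts salt, calcium and magnesium transport to blood calcium.

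Total counts ran from 58394975 to 70674015 per library. The samples are labelled as renal cortex, but their extraction text names prefrontal cortex. The neuronal gene Snap25 had 0 counts in every library, and Slc12a3, the thiazide-sensitive cotransporter of the distal convoluted tubule, had 58367 to 102137. Mitochondrially encoded protein genes took 0.518% to 2.83% of counts in DN+NaB libraries, 0.361% to 2.90% in DN and 0.494% to 1.04% in NC, and their part in the results was not tested. Levels are in CPM (counts per 1000000, scaled between libraries by TMM factors). NC replicate 4 was the lowest NC library for Pvalb, Calb1, S100g, Trpm6, Atp2b4, Cnnm2 and Slc12a3. Markers of T cells and macrophages (6 genes) summed to 228 to 881 CPM in DN+NaB, 1038 to 4100 in DN and 735 to 1050 in NC. Cd74, an antigen presentation gene, made up most of that sum (482 ± 313 CPM in DN+NaB, 2600 ± 1442 in DN and 833 ± 140 in NC, n = 4 each). In DN against NC it differed by 1.64 ± 0.50 (adjusted p = 0.0711), while the other 5 differed by -1.30 to -0.56, with 0 of the 6 called by edgeR and 1 higher and 4 lower at an unadjusted p under 0.05. In DN+NaB against NC, 5 of the 6 fell and Cd74 was not called, beside 8.94% of all genes called lower. Their part in the results was not tested either. In whole cortex, fewer cells of a type and less RNA per cell cannot be told apart.

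Compared per kilobase of exon (union of GENCODE M21 exons, which may hold stretches not used in kidney), S100g had the highest level of the 10, with 812 ± 146 CPM per kb in DN+NaB, 501 ± 66.3 in DN and 681 ± 209 in NC (SD, n = 4 each). Pvalb came next in DN+NaB and DN, at 155 ± 28.9 and 134 ± 43.6 CPM per kb, but was the fifth in NC, at 20.9 ± 5.69. There it lay beside Slc8a1 (21.3 ± 1.82 CPM per kb), within the spread of the libraries. Casr was the second in NC, at 59.5 ± 8.58 CPM per kb, and the fourth in DN+NaB and DN, at 35.6 ± 4.67 and 37.5 ± 2.81. In DN+NaB its libraries overlapped those of Slc8a1 (31.6 ± 3.23 CPM per kb). Calb1 was the third in all groups, at 58.0 ± 6.96, 47.1 ± 13.0 and 40.3 ± 1.85 CPM per kb in DN+NaB, DN and NC; in DN its libraries overlapped those of Casr. The lowest levels were those of Trpm6 and Atp2b1, at 4.24 ± 0.592 and 3.58 ± 0.375 CPM per kb in DN+NaB, which overlapped. Trpv5 and Atp2b4 lay just above these, at 9.54 ± 0.597 and 8.97 ± 0.999 CPM per kb in DN+NaB, where they overlapped. In DN and NC, Trpv5 (10.1 ± 1.60 and 12.5 ± 0.238) lay above Atp2b4 (7.88 ± 0.501 and 7.03 ± 0.991) without overlap.

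**Figure D1:**
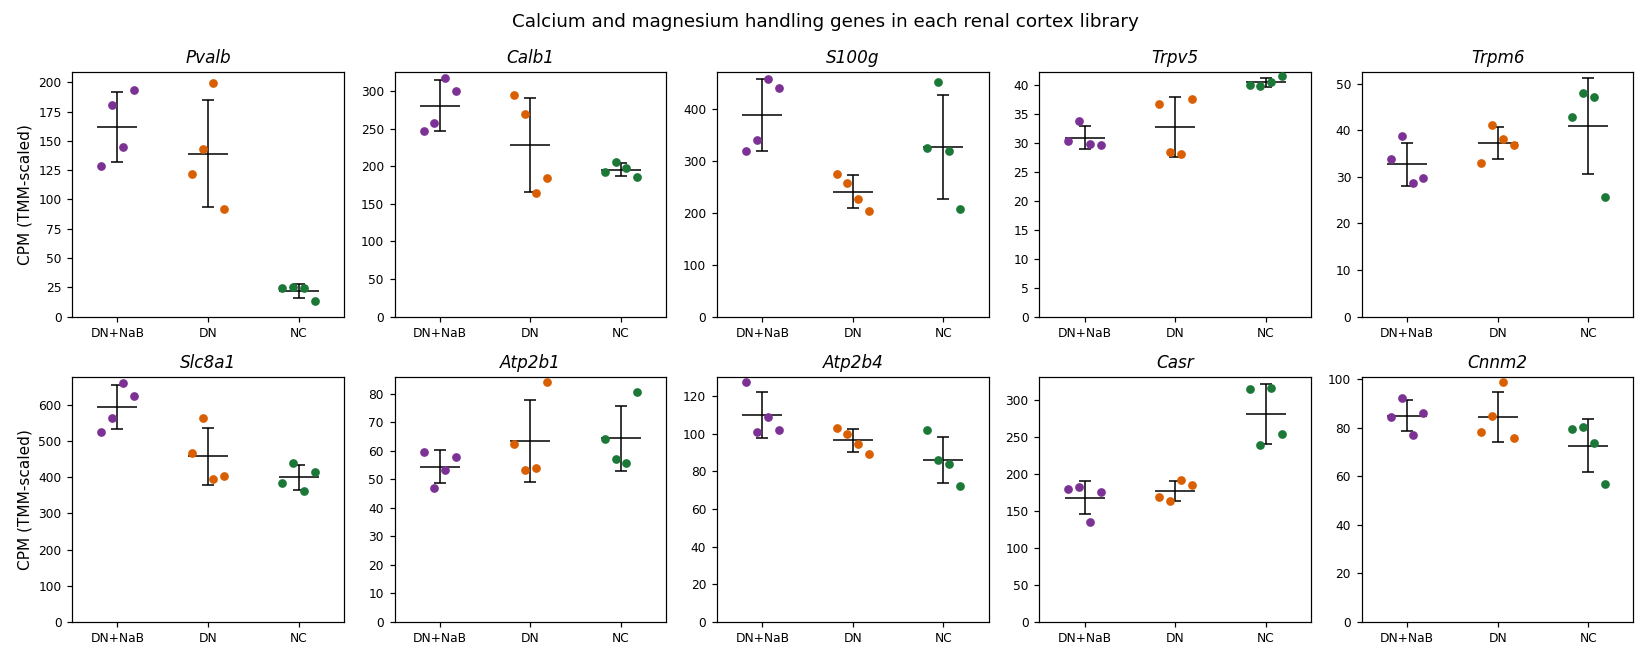
TMM-scaled CPM of the 10 genes in every library of DN+NaB, DN and NC, each axis starting at 0. Points are libraries, and the bar with whiskers is the mean with SD (n = 4). Pvalb lies at 92.1 to 199.6 CPM in all 8 diseased libraries and at 12.9 to 25.2 in NC, and Casr lies lower in all 8 than in any NC library.

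The first comparison asked which of the 10 genes differed between diabetic nephropathy and normal cortex. Pvalb rose and Casr fell in DN, and 8 of the 10 did not pass the test. A gene was called at an adjusted p under 0.05 by edgeR's quasi-likelihood test, adjusted by Benjamini-Hochberg over all genes tested. Across all 17530 genes, 3.82% were called higher and 4.42% lower in DN than NC (669 and 774 genes, or 503 and 1103 when libraries were scaled by size alone). The median log2 fold change was 0.07 over the 10 genes and 0.01 over all genes.

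Against NC, DN+NaB had 5 of the 10 genes called: Pvalb, Calb1 and Slc8a1 rose, and Trpv5 and Casr fell. Of all genes, 6.62% were called higher and 8.94% lower in that comparison (1161 and 1568 genes, or 875 and 2070 by size alone). The median log2 fold change was 0.24 over the 10 genes, against -0.01 over all. This comparison shares the NC libraries with that of DN and NC, so the values of each are given side by side and are not independent.

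Between DN+NaB and DN, 0 of the 10 genes were called by edgeR, and 0 by DESeq2 or limma-voom. S100g and Slc8a1 were higher at an unadjusted p under 0.05, which 9.85% of all genes passed in either direction, and 0 were lower. Of all genes, 0.0114% were called higher and 0.0114% lower by edgeR, 2 genes each. DESeq2 called 84 higher and 173 lower, and edgeR without DN replicate 3 called 30 and 37. The median log2 fold change was 0.10 over the 10 genes and -0.02 over all.

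**Figure D2:**
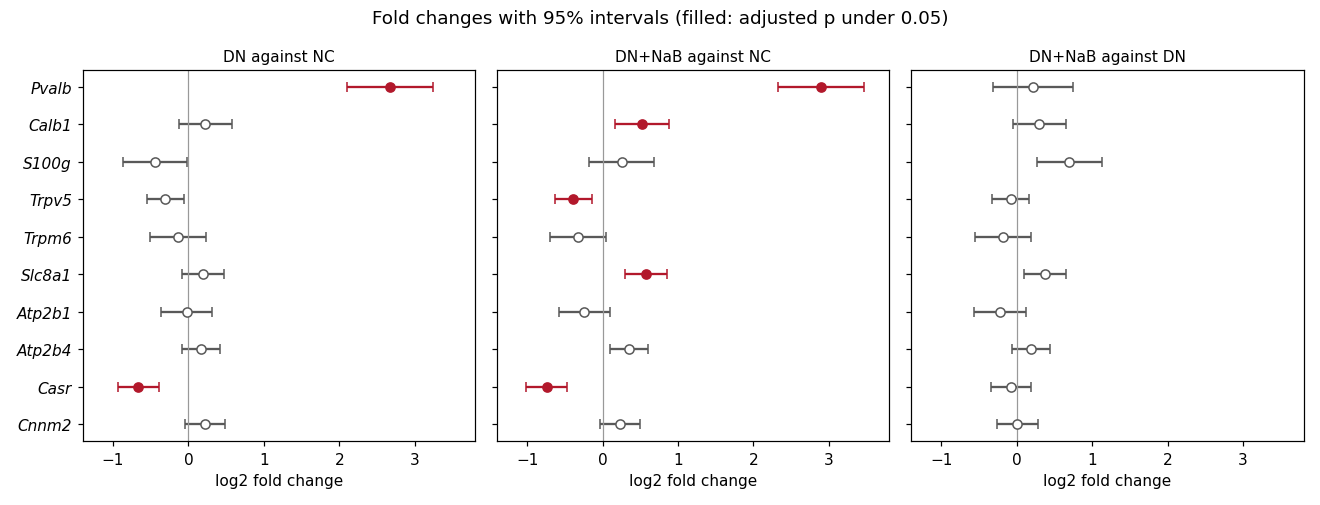
Log2 fold changes of the 10 genes in the 3 comparisons, with 95% intervals from the edgeR fit; filled red points have an adjusted p under 0.05. Pvalb lies at 2.68 (DN against NC) and 2.89 (DN+NaB against NC), Casr at -0.67 and -0.74, and no point is filled for DN+NaB against DN.

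Pvalb encodes parvalbumin, a cytosolic calcium buffer that in mouse kidney marks the early distal convoluted tubule and elsewhere serves fast muscle and a class of inhibitory neurons. It had 128.9, 180.4, 144.5 and 193.3 CPM in DN+NaB replicates 1 to 4, 122.1, 143.0, 199.6 and 92.1 in DN, and 24.6, 25.2, 24.5 and 12.9 in NC. Every diseased library exceeded every NC library, and the diseased groups overlapped. Groups did not overlap, with DN higher than NC, for 5.86% of all genes, and with DN+NaB higher than NC for 14.0%. The log2 fold change was 2.68 ± 0.26 (SE) in DN against NC, a 6.39-fold difference (adjusted p = 3.88e-05), and 2.89 ± 0.26 in DN+NaB against NC, 7.42-fold (adjusted p = 1.69e-05). Both stayed called in each of 20 other settings, and without NC replicate 4 the values were 2.47 and 2.70. Butyrate-treated libraries differed from DN by 0.22 ± 0.25 (95% interval -0.31 to 0.75, adjusted p = 0.797).

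Of the markers of its segment, Pvalb alone was called. The 7 others outside the 10 genes (Slc12a3, Klhl3, Wnk4, Emx1, Sall3, Tmem52b and Kcnj10) summed to 2207 ± 160 CPM in DN+NaB, 1950 ± 336 in DN and 2036 ± 354 in NC, and 0 of the 7 were called in either comparison with NC by edgeR. Pvalb counts were 7.30% ± 1.04 of that sum in DN+NaB, 7.07% ± 1.59 in DN and 1.05% ± 0.138 in NC (n = 4 each), so the ratio within a library did not overlap between diseased and NC mice. Slc12a3, the largest part of that sum, differed by 0.01 ± 0.17 in DN against NC (adjusted p = 0.991) and by 0.25 ± 0.17 in DN+NaB against NC (adjusted p = 0.358). Tmem52b lay below NC without overlap in DN (-0.45 ± 0.16, adjusted p = 0.118) and in DN+NaB (-0.48 ± 0.16, adjusted p = 0.0655). Such gaps held for 7.49% and 13.9% of all genes. Markers of other tissues that use parvalbumin were also summed, and their part in the Pvalb difference was not tested. The 7 skeletal muscle genes summed to 1.18 to 1.75 CPM in DN+NaB, 1.27 to 2.09 in DN and 1.68 to 2.02 in NC, with the fast myosin gene Myh4 at 0 counts in all 12 libraries. The neuron and glia list summed to 16.1 to 22.7 CPM in DN+NaB, 17.3 to 24.6 in DN and 16.8 to 22.1 in NC, mostly of Mbp, with 942 to 1501 counts per library. Gad1, which inhibitory neurons need to make their transmitter, had 1 to 15 counts in DN+NaB, 2 to 6 in DN and 15 to 21 in NC.

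Genes beside Pvalb did not show the same size of change. Eif3d, Ift27, Ncf4 and Csf2rb2, the 2 tested genes on either side of Pvalb in RefSeq order, differed by 0.03 to 1.16 in DN against NC and 0 of the 4 were called by edgeR; the neutrophil oxidase gene Ncf4 was the highest (adjusted p = 0.0932). GENCODE M21 lists no other gene whose exons share bases with those of Pvalb. Since Pvalb had the largest change, the 250 bases before each of its 2 RefSeq start sites are printed (GRCm38.p6, minus strand, chr15:78206401-78206650 and chr15:78204238-78204487). Neither stretch holds any of 4 motifs searched on both strands in all 32817 such stretches of the RefSeq table. The TATA box TATAAA occurs in 12.4% of them and the nuclear receptor core AGGTCA in 14.0%. The E-box CACGTG occurs in 6.02% and the cAMP response element TGACGTCA in 1.55%. A motif is printed in capitals wherever it was found, and the search is a match of letters only.
Pvalb start site 1: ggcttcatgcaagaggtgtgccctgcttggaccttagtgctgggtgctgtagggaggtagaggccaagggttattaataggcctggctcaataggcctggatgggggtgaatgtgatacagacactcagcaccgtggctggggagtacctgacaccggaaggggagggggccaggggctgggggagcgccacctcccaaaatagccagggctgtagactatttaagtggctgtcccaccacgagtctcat
Pvalb start site 2: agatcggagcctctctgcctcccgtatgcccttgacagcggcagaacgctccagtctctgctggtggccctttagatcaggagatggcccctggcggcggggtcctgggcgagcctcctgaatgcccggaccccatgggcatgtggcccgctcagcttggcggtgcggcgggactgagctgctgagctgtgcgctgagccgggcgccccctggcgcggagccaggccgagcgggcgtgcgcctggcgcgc

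Calb1 encodes calbindin-D28k, the main calcium carrier of the late distal convoluted and connecting tubule. It had 247.4, 258.0, 318.2 and 300.3 CPM in DN+NaB, 294.4, 269.2, 165.1 and 185.1 in DN, and 192.5, 206.4, 197.9 and 185.2 in NC. All DN+NaB libraries lay above all NC libraries, as for 14.0% of all genes, while DN ran from below the NC range into the treated range. Calb1 rose by 0.52 ± 0.16 in DN+NaB against NC (1.44-fold, adjusted p = 0.0451), a call made in 9 of 20 other settings only, with adjusted p up to 0.127. Against DN, the treated libraries differed by 0.30 ± 0.16 (adjusted p = 0.589), and DN differed from NC by 0.22 ± 0.16 (adjusted p = 0.474). Among tested genes around Calb1 in RefSeq order, Tmem64 rose by 0.50 ± 0.11 in DN+NaB against NC (adjusted p = 0.00957). Gm11855, Decr1 and Nbn were not called there.

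S100g encodes calbindin-D9k, a smaller calcium carrier of the distal tubule and gut whose gene is a classical vitamin D target. It had 319.2, 340.5, 458.1 and 441.0 CPM in DN+NaB, 274.9, 257.0, 227.4 and 202.9 in DN, and 326.3, 453.9, 319.7 and 208.1 in NC. Every DN+NaB library exceeded every DN library, and NC spanned both groups. Of the 10 genes it was the only one whose DN+NaB and DN libraries did not overlap, which held for 2.13% of all genes in that direction and 2.44% in the other. The difference between DN+NaB and DN was 0.70 ± 0.20 (1.62-fold, 95% interval 0.27 to 1.13), with an unadjusted p = 0.00371 from edgeR and an adjusted p = 0.251 that does not pass. DN against NC gave -0.44 ± 0.20 (adjusted p = 0.213). Without NC replicate 4 that value was -0.62 and just passed (adjusted p = 0.0495). DN+NaB against NC gave 0.25 ± 0.20 (adjusted p = 0.426), or 0.078 without NC replicate 4. Some other distal markers were also higher in DN+NaB than DN without overlap. They were Kl, Scnn1b and Scnn1g of the 4 connecting tubule markers outside the 10 genes (2.42 ± 0.57, 0.32 ± 0.14 and 0.21 ± 0.13), and Foxi1, Slc26a4 and Insrr of 7 intercalated cell markers (0.62 ± 0.15, 0.60 ± 0.16 and 0.47 ± 0.15). Of these 6, 0 were called by edgeR (adjusted p 0.167 to 0.639). Aqp6 of the intercalated cell list differed by -0.06 ± 0.16. Of the 9 distal convoluted tubule markers (Pvalb and Trpm6 among them) and the 6 principal cell markers, 0 were separated in either direction. The 4 connecting tubule markers summed to 2715 ± 354 CPM in DN+NaB, 2269 ± 297 in DN and 2835 ± 634 in NC, and their part in the S100g difference was not tested. S100g alone of the 9 members with a RefSeq upstream sequence carries AGGTCA before its start, as do 14.0% of all stretches searched. The S100g stretch holds it at 2 places, capitals below, from 220 to 215 bases before the start and, on the opposite strand, from 107 to 102 (chrX:162964600-162964849, minus strand, GRCm38.p6). This is a match of letters only, and its part in S100g levels was not tested.
S100g: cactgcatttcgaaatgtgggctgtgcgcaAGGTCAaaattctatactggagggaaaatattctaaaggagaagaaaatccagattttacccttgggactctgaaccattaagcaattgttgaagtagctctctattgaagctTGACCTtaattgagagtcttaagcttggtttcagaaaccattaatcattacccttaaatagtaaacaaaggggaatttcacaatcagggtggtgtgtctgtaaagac

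Trpv5 encodes the apical calcium channel of the distal tubule. It had 30.4, 33.8, 29.8 and 29.7 CPM in DN+NaB, 36.7, 28.4, 28.1 and 37.7 in DN, and 40.0, 39.9, 40.6 and 41.6 in NC. The NC libraries were tightly grouped and higher than all 8 diseased libraries; DN+NaB lay below NC without overlap for 13.9% of all genes. Trpv5 fell by 0.39 ± 0.11 in DN+NaB against NC (0.763-fold, adjusted p = 0.0338). With 1 library left out it stayed called in 5 of 12 cases (adjusted p 0.0147 to 0.0943), and in 8 of 8 other settings. In DN against NC the difference was -0.31 ± 0.11 (adjusted p = 0.123), or -0.40 without DN replicate 4 (adjusted p = 0.0374). Trpv5 against its neighbour and close relative Trpv6 is uncertain to the extent that reads fit both, since the treatment of such reads is not given in the sources used here; Trpv6 had 1.56 to 2.30 CPM in DN+NaB, 2.55 to 4.99 in DN and 2.01 to 2.29 in NC. Among tested genes around Trpv5 in RefSeq order, Ephb6 fell by 0.94 ± 0.25 in DN+NaB against NC (adjusted p = 0.0199). Ephb6 also fell by 0.91 ± 0.25 in DN against NC (adjusted p = 0.0370). Trpv6, Kel and Gstk1 were not called in either comparison. The Trpv5 upstream stretch holds a TATAAA, found in 12.4% of all stretches searched, from 43 to 38 bases before the start (chr6:41680724-41680973, minus strand, GRCm38.p6), in capitals.
Trpv5: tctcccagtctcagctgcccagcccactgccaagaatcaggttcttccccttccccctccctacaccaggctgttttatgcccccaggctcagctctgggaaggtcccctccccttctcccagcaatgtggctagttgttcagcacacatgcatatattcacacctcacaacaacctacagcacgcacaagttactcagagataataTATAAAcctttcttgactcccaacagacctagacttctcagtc

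Trpm6 encodes the apical magnesium channel of the distal convoluted tubule, a channel fused to a kinase. It had 33.8, 38.7, 28.6 and 29.8 CPM in DN+NaB, 32.9, 41.2, 38.1 and 36.9 in DN, and 42.8, 48.0, 47.2 and 25.8 in NC. NC replicate 4 lay below all other libraries, whereas the other NC libraries lay above all diseased ones. The difference was -0.32 ± 0.17 in DN+NaB against NC (adjusted p = 0.231) and -0.14 ± 0.17 in DN against NC (adjusted p = 0.719). Without NC replicate 4, Trpm6 was lower by -0.51 in DN+NaB against NC (adjusted p = 0.0152) and differed by -0.31 in DN against NC (adjusted p = 0.143). As a share of the 7 distal convoluted tubule markers, Trpm6 made 1.48% ± 0.147 in DN+NaB, 1.94% ± 0.297 in DN and 1.99% ± 0.240 in NC (n = 4 each). The DN+NaB share (1.30% to 1.64%) lay below those of DN (1.79% to 2.39%) and NC (1.70% to 2.24%) without overlap. Trpm6 CPM itself overlapped between DN+NaB and DN, with a difference of -0.19 ± 0.17 (adjusted p = 0.749 by edgeR). The sum of the 7 markers, of which Slc12a3 was the largest part, was 2207 ± 160 CPM in DN+NaB and 1950 ± 336 in DN. How often such a share separates for other genes was not examined, and this share was not tested.

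Slc8a1 encodes the sodium-calcium exchanger NCX1, which carries calcium out of connecting tubule cells and heart muscle. It had 525.9, 565.0, 662.7 and 624.2 CPM in DN+NaB, 467.8, 564.5, 394.4 and 404.8 in DN, and 384.2, 440.8, 362.5 and 413.9 in NC. All treated libraries were above all NC libraries, as for 14.0% of all genes, and 1 DN library reached the treated range. Slc8a1 rose by 0.57 ± 0.13 in DN+NaB against NC (1.48-fold, adjusted p = 0.00851), a call kept in 20 of 20 other settings. The difference from DN was 0.38 ± 0.13 (unadjusted p = 0.0112 and adjusted p = 0.348 by edgeR), and that of DN from NC 0.19 ± 0.13 (adjusted p = 0.423). Its exons share 296 bases, 1.57% of their length, with an antisense gene, and the strand setting of the counting is not given in the sources used here. Among tested genes around Slc8a1 in RefSeq order, Rpsa-ps7 rose by 1.29 ± 0.21 in DN+NaB against NC (adjusted p = 0.00102). Tmem178 fell there by 0.96 ± 0.22 (adjusted p = 0.00802), and Thumpd2 and Gm34265 were not called. In DN against NC, Rpsa-ps7 alone of them was called (0.86 ± 0.21, adjusted p = 0.0209). Its symbol marks a pseudogene, and the treatment of reads that also fit another gene is not given in the sources used here. The stretch before the Slc8a1 start (chr17:81738388-81738637, minus strand, GRCm38.p6) holds 0 of the 4 motifs.
Slc8a1: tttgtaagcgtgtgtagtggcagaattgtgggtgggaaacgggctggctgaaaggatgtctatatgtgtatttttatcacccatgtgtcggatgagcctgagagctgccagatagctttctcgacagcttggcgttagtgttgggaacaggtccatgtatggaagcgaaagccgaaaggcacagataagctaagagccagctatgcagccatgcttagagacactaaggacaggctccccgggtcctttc

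Neither plasma membrane calcium pump gene on the list was called in any of the 3 comparisons. Atp2b1 encodes PMCA1, the broadly expressed pump, and had 59.7, 47.0, 53.2 and 58.0 CPM in DN+NaB, 62.3, 53.4, 54.0 and 84.0 in DN, and 64.1, 57.1, 55.8 and 80.7 in NC. DN replicate 4 and NC replicate 4 were the highest, and all 3 groups overlapped. It differed by -0.24 ± 0.16 in DN+NaB against NC (adjusted p = 0.333, or -0.13 without NC replicate 4), -0.02 ± 0.16 in DN against NC (adjusted p = 0.960) and -0.22 ± 0.16 in DN+NaB against DN (adjusted p = 0.674).

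Atp2b4 encodes PMCA4, a pump also known from red cells and smooth muscle, with 127.4, 101.1, 108.9 and 101.9 CPM in DN+NaB, 103.0, 99.8, 94.4 and 89.1 in DN, and 101.9, 86.0, 83.9 and 72.4 in NC. All 3 groups overlapped. Its difference of 0.35 ± 0.12 in DN+NaB against NC narrowly missed the threshold (95% interval 0.10 to 0.60, adjusted p = 0.0553), and it was called in 4 of 20 other settings, among them DESeq2 (adjusted p = 0.0345), without NC replicate 1 (0.0240) and without DN replicate 4 (0.0439). DN differed from NC by 0.17 ± 0.12 (adjusted p = 0.450). Without NC replicate 4 these values were 0.26 (adjusted p = 0.138) and 0.082 (adjusted p = 0.723). Markers of red cells summed to 87.2 to 181 CPM in DN+NaB, 73.5 to 257 in DN and 92.2 to 173 in NC; those of smooth muscle and fibroblasts summed to 232 to 365, 182 to 343 and 344 to 425 CPM in the same order. Their part in the result was not tested.

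Cnnm2 encodes a basolateral protein of the distal convoluted tubule that is needed to conserve magnesium. It had 84.4, 92.2, 76.9 and 86.2 CPM in DN+NaB, 78.0, 84.9, 98.7 and 75.8 in DN, and 79.6, 80.2, 73.7 and 56.9 in NC. The groups overlapped, with NC replicate 4 the lowest library. Differences were 0.23 ± 0.12 in DN+NaB against NC (adjusted p = 0.243), 0.22 ± 0.12 in DN against NC (adjusted p = 0.340) and 0.01 ± 0.12 between DN+NaB and DN (95% interval -0.26 to 0.28, adjusted p = 0.985). Without NC replicate 4 the differences from NC were 0.11 for DN+NaB (adjusted p = 0.525) and 0.10 for DN (adjusted p = 0.606).

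Casr encodes the calcium-sensing receptor. It had 179.8, 181.6, 135.0 and 174.8 CPM in DN+NaB, 168.2, 163.6, 191.8 and 184.2 in DN, and 314.7, 238.9, 316.2 and 253.3 in NC. All 8 diseased libraries lay below all NC libraries, and the diseased groups overlapped. Groups did not overlap, with DN lower, for 7.49% of all genes, and Casr and Trpv5 were the 2 members of which this held. DN+NaB lay below NC without overlap for 13.9% of all genes. Casr fell by 0.67 ± 0.13 in DN against NC (0.630-fold, adjusted p = 0.00458) and by 0.74 ± 0.13 in DN+NaB against NC (0.598-fold, adjusted p = 0.00144). Both calls were kept in 20 of 20 other settings. The difference between DN+NaB and DN was -0.08 ± 0.13 (95% interval -0.35 to 0.19, adjusted p = 0.859).

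Of the 7 other markers of the thick ascending limb (Slc12a1, Umod, Cldn16, Cldn10, Egf, Ptger3 and Cldn19), Egf and Umod fell and 5 were not called in DN against NC. In DN+NaB against NC, 4 fell (Slc12a1, Umod, Egf and Cldn19), Cldn10 rose and 2 were not called. Over all genes, 3.82% were called higher and 4.42% lower in DN against NC, and 6.62% and 8.94% in DN+NaB against NC. Umod, which encodes uromodulin, had 3279 ± 552 CPM in DN+NaB, 3384 ± 499 in DN and 5983 ± 1670 in NC (n = 4 each), and differed by -0.82 ± 0.20 in DN against NC (adjusted p = 0.0201). Cldn10 differed by 0.18 ± 0.14 there (adjusted p = 0.504). Together the 7 summed to 6118.5 ± 816 CPM in DN+NaB, 6286 ± 827 in DN and 10669 ± 2476 in NC. Casr made 2.76% ± 0.376 of that sum in DN+NaB, 2.84% ± 0.351 in DN and 2.69% ± 0.437 in NC (n = 4 each), so this share differed by less than the spread between libraries, in a sum of which Umod was the largest part. Parathyroid gland, the other main site of the receptor, gave almost no signal: Gcm2 had 0 counts in all 12 libraries and Pth 0 or 1. The 4 tested genes around Casr in RefSeq order were not called in DN against NC by edgeR (-0.37 to 0.64, adjusted p 0.660 to 0.958). The stretch before its start (chr16:36562135-36562384, minus strand, GRCm38.p6) holds 0 of the 4 motifs.
Casr: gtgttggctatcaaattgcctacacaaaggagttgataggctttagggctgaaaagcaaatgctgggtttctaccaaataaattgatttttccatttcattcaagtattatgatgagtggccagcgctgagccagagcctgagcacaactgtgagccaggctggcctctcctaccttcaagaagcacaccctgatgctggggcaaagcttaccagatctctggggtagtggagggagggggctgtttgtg

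**Figure D3:**
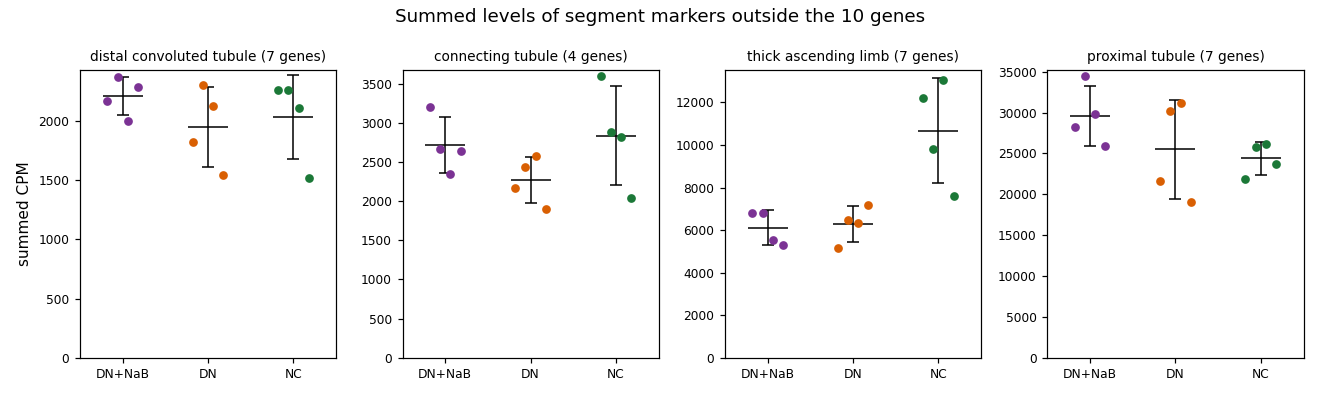
Summed CPM of marker genes of 4 nephron segments outside the 10 genes, by library (points), with mean and SD (n = 4). Distal convoluted tubule markers overlap between all groups (1517 to 2368 CPM), while thick ascending limb markers reach 5178 to 7176 CPM in the 8 diseased libraries and 7583 to 13066 in NC.

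Genes related to the 10 were described from 3 lists, of relatives in the same families, of genes of renal magnesium wasting, and of regulators of TRPV5 and distal calcium transport. Of 20 tested relatives, 0 were called in DN against NC by edgeR, with 5 higher and 3 lower at an unadjusted p under 0.05 (21.9% of all genes in either direction) and 3 called by DESeq2. For DN+NaB against NC, Cnnm4 and Cnnm1 of the CNNM family rose (0.62 ± 0.15 and 0.43 ± 0.14, adjusted p = 0.0103 and 0.0464). Mrs2, the mitochondrial magnesium channel, and Tusc3 fell (-0.52 ± 0.13 and -0.38 ± 0.11, adjusted p = 0.0115 and 0.0274), and 16 were not called. Over all genes, 6.62% were called higher and 8.94% lower in that comparison. The list median was 0.06 in DN against NC and -0.08 in DN+NaB against NC. Cnnm4, a basolateral magnesium transporter of gut, had 55.0 ± 8.98 CPM in DN+NaB, 37.1 ± 4.82 in DN and 35.7 ± 5.21 in NC (n = 4 each). Its treated libraries were above all others, as for 2.13% of all genes against DN and 14.0% against NC. Between DN+NaB and DN it differed by 0.57 ± 0.15 (unadjusted p = 0.00160 and adjusted p = 0.183 by edgeR), and Trpv6 by -0.81 ± 0.23 (adjusted p = 0.251), with 0 of 20 called by edgeR and 1 by DESeq2. Slc41a2 and Magt1 differed by -0.57 ± 0.22 and -0.27 ± 0.14 there (adjusted p = 0.416 and 0.571). In DN against NC, Slc8b1, the mitochondrial exchanger, differed by 0.50 ± 0.16, Trpv4 by -0.38 ± 0.12, Trpv6 by 0.67 ± 0.23 and Cnnm1 by 0.37 ± 0.14 (adjusted p = 0.0708, 0.0766, 0.100 and 0.121).

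Of 23 tested magnesium wasting genes, 2 rose, 1 fell and 20 were not called in DN against NC (median -0.09). Over all genes, 3.82% were called higher and 4.42% lower there. Egf, the growth factor that stimulates TRPM6, fell by 0.81 ± 0.18 (adjusted p = 0.0118), with 1876 ± 223 CPM in DN+NaB, 1708 ± 418 in DN and 2995 ± 530 in NC (n = 4 each), while its receptor gene Egfr rose by 0.44 ± 0.13 (adjusted p = 0.0444). Rragd, a GTPase of nutrient sensing, rose by 0.46 ± 0.11 (adjusted p = 0.0157). The paracellular magnesium pathway gene Cldn16 differed by -0.47 ± 0.15 (adjusted p = 0.0773) and Fxyd2, a sodium pump subunit, by -0.17 ± 0.18 (adjusted p = 0.657). In DN+NaB against NC, 2 rose, 3 fell and 18 were not called (median -0.09), beside 6.62% higher and 8.94% lower over all genes. Slc12a1, the furosemide-sensitive cotransporter, fell by 0.96 ± 0.21, Cldn19 by 0.80 ± 0.19 and Egf by 0.68 ± 0.18 (adjusted p = 0.00680, 0.0116 and 0.0201), and Rragd and Cldn10 rose by 0.48 ± 0.11 and 0.49 ± 0.14 (adjusted p = 0.00674 and 0.0290). Between DN+NaB and DN, 0 of 23 were called by edgeR, DESeq2 or limma-voom, with 1 higher at an unadjusted p under 0.05 (Cldn10, 0.31 ± 0.14, adjusted p = 0.488). The next by p were Pcbd1, Slc12a1 and Fam111a (0.36 ± 0.18, -0.40 ± 0.21 and -0.97 ± 0.52, adjusted p = 0.540, 0.564 and 0.580). Egf, called lower in both comparisons with NC, is also on the thick ascending limb list. So are Slc12a1 and Cldn19, which fell, and Cldn10, which rose, each called in DN+NaB against NC only.

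Of 29 tested regulators, 2 rose, 2 fell and 25 were not called in DN against NC (median -0.00). Over all genes, 3.82% were called higher and 4.42% lower there. Tgm2, a transglutaminase, rose by 0.73 ± 0.14 and S100a10, a partner of TRPV5 at the membrane, by 0.46 ± 0.13 (adjusted p = 0.00461 and 0.0491). The sialyltransferase gene St6gal1 and the oestrogen receptor gene Esr1 fell by 0.46 ± 0.11 and 0.67 ± 0.18 (adjusted p = 0.0202 and 0.0319). For DN+NaB against NC, 4 rose, 4 fell and 21 were not called (median 0.03), beside 6.62% higher and 8.94% lower over all genes.

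Cyp24a1, the enzyme that breaks down active vitamin D, rose by 2.48 ± 0.47 in DN+NaB against NC (adjusted p = 0.00434). It had 568, 847, 606 and 508 CPM in DN+NaB, 198, 372, 78.5 and 350 in DN, and 65.7, 87.6, 110 and 191 in NC. Treated libraries were above all others, as for 2.13% of all genes against DN and 14.0% against NC, and DN overlapped NC. Its differences were 1.34 ± 0.45 from DN (adjusted p = 0.350) and 1.14 ± 0.45 in DN against NC (adjusted p = 0.160). The vitamin D receptor gene Vdr differed by 0.40 ± 0.16 in DN+NaB against NC (adjusted p = 0.106) and 0.17 ± 0.16 in DN against NC (adjusted p = 0.598). The parathyroid hormone receptor gene Pth1r differed by -0.03 ± 0.17 and -0.08 ± 0.17 in those comparisons (adjusted p = 0.937 and 0.846).

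Kl encodes klotho, an FGF receptor partner made in the distal tubule, and rose by 2.16 ± 0.57 in DN+NaB against NC (adjusted p = 0.0246). It had 7.84, 55.5, 8.33 and 34.1 CPM in DN+NaB, 4.28, 4.80, 7.39 and 3.21 in DN, and 7.10, 5.96, 4.94 and 5.69 in NC, so the rise rests mainly on treated replicates 2 and 4. The difference from DN was 2.42 ± 0.57 (adjusted p = 0.168). Esr1 had 11.5 ± 1.43 CPM in DN+NaB, 19.6 ± 4.65 in DN and 31.1 ± 5.56 in NC (n = 4 each). It fell by 1.44 ± 0.18 in DN+NaB against NC (adjusted p = 1.51e-04), and between DN+NaB and DN it differed by -0.77 ± 0.18 (adjusted p = 0.133). Tgm2 and S100a10 rose by 0.85 ± 0.14 and 0.65 ± 0.13 in DN+NaB against NC (adjusted p = 0.00102 and 0.00489). Wnk1, a kinase of distal salt transport, Nedd4l, a ubiquitin ligase, and Slc9a3r2, a scaffold protein, fell by 0.62 ± 0.13, 0.46 ± 0.11 and 0.60 ± 0.17 (adjusted p = 0.00552, 0.0134 and 0.0255). Between DN+NaB and DN, 0 of 29 were called by edgeR, against 2 by DESeq2 and 0 by limma-voom, with 2 higher and 2 lower at an unadjusted p under 0.05.

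**Figure D4:**
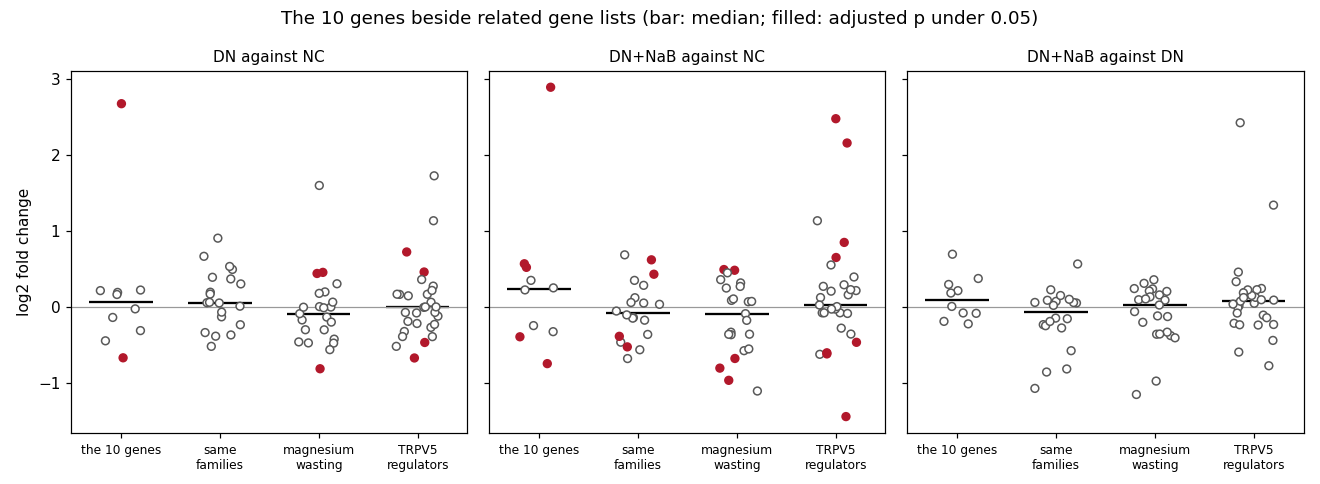
Log2 fold changes of the 10 genes and of the tested members of 3 related lists (20, 23 and 29 genes) in the 3 comparisons. Bars are list medians, and filled red points have an adjusted p under 0.05; the medians of the 3 related lists lie between -0.09 and 0.08, and no point is filled for DN+NaB against DN.

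Genes whose levels followed those of a member from library to library were looked for after each gene was set to its deviation from its group mean in log2 CPM. For each member the 3 most alike of 12559 genes are named by Pearson's r over the 12 libraries, as a description with no p, since the highest of so many values is high by selection. They were Trappc3, Med29 and Bet1l for Pvalb (r = 0.95 each), Plscr4, Bcl2l14 and Tmem243 for Calb1 (0.93, 0.93 and 0.92), and Ube2a, Cpq and Gng5 for S100g (0.94, 0.88 and 0.87). For the channels they were Sec23ip, Ttll4 and Wdr82 with Trpv5 (0.96, 0.94 and 0.93) and Dvl3, Actb and Zfyve27 with Trpm6 (0.97, 0.97 and 0.96). For the exit pathways they were Akr1c21, Lipa and Zxda with Slc8a1 (0.89, 0.87 and 0.87), Zcchc6, Suv420h1 and Btbd7 with Atp2b1 (0.97 each), Sulf2, Rheb and Ltc4s with Atp2b4 (0.94, 0.90 and 0.89), and Cops8, Mob2 and Nfkbib with Cnnm2 (0.99, 0.97 and 0.97). Those of Casr were Pitpnm3, Stc2 and Cdh1 (0.92, 0.88 and 0.87). None of these 30 places was taken by another of the 10 genes. With 12559 genes searched, that says little of how the 10 varied together. Between members, r over the same deviations ran from -0.82 (Pvalb and Atp2b1) to 0.91 (Pvalb and Cnnm2).

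**Figure D5:**
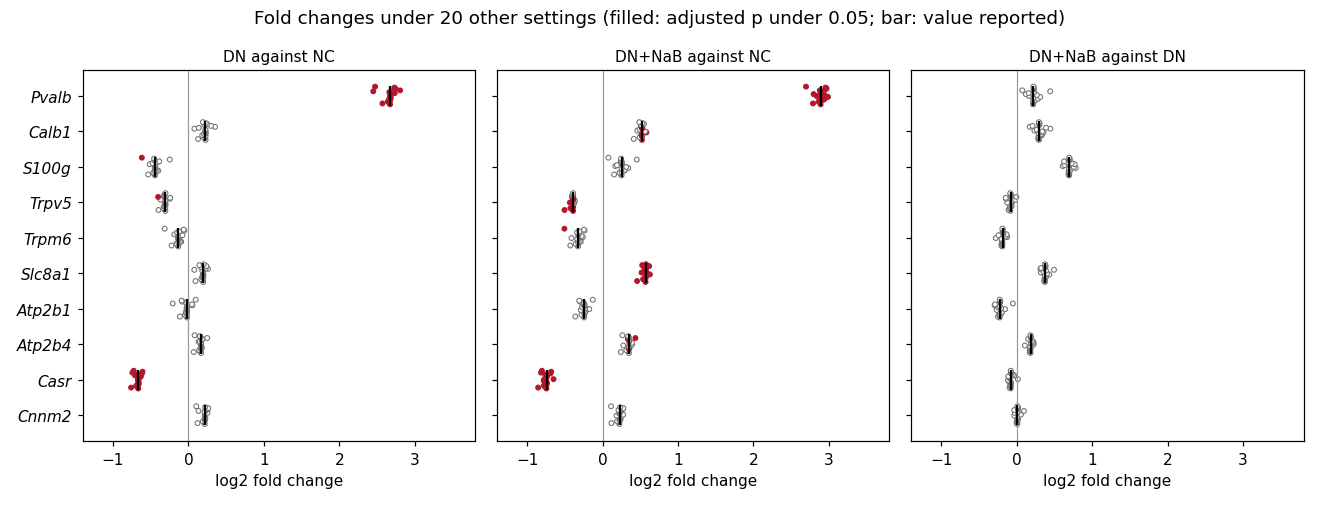
Log2 fold changes of the 10 genes under 20 other settings (small points: 12 with 1 library left out and 8 with another scaling, filter, tool or design), with the reported value as a black bar; filled red points have an adjusted p under 0.05. All points of Pvalb and Casr are filled in both comparisons with NC, those of Calb1 in DN+NaB against NC in 9 of 20, and none in DN+NaB against DN.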

How the data were processed

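The deposited table holds raw counts per gene symbol for 12 libraries of mouse renal cortex, made by the authors; HISAT2 2.0.4 is named per the submitters' processing notes. Neither the counter, its strand setting, the annotation nor the genome build is given in the sources used here. Groups came from the sample titles. Genes were filtered with filterByExpr by group, scaled with TMM factors and tested in 1 edgeR 4.0.16 quasi-likelihood fit (R 4.3.3) with group as the only term, robust estimation, two-sided tests and Benjamini-Hochberg adjustment. The fit was tested on simulated data. Other scalings, filters, DESeq2 1.42.0, limma-voom (limma 3.58.1), a replicate block, fits of 8 libraries and leaving out each library were tried. Fold changes are log2 values with the fit's SE; CPM values are mean ± SD. Log2 CPM used a prior count of 2. Libraries of a group differed by more than sampling noise. The median SE was 0.20 over all tested genes and 0.14 over the 10.

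The 10 genes, lists and rules were chosen with earlier results of these data known. All 10 are named. From each related list the 4 genes with the smallest p per comparison, up to 8 called ones and a preset set of genes are named, except results that are not reported here; genes at neighbouring places and single marker genes were chosen after their values were seen. Exon lengths came from GENCODE M21, and gene order and upstream sequences from RefSeq (GRCm38.p6). Of the 10, 9 had an upstream sequence there. Neighbouring genes were described for called members only. No 2 libraries agreed within sampling noise. Same-numbered libraries were not treated as pairs.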

Additional observations from a re-analysis of the deposited data

Results flagged for a closer look

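In all, 8 values stood far from the other 3 of their group, of 123 groups of 4 examined over 41 named genes; chance gives about 1 in 20. Of the 10 genes, Pvalb had 12.9 CPM in NC replicate 4, against 24.5 to 25.2 in the other NC libraries. Trpv5 had 33.8 CPM in DN+NaB replicate 2, against 29.7 to 30.4 in the other treated libraries, and Casr had 135 CPM in DN+NaB replicate 3, against 175 to 182. Without that library the log2 fold change of Casr in DN+NaB against DN was 0.015. Among related genes, NC replicate 4 held Cldn16 at 8.34 CPM, against 11.8 to 12.4 in the others. Trpv6 had 4.99 CPM in DN replicate 4, against 2.55 to 2.96. Pth1r had 715 CPM in DN+NaB replicate 2 (602 to 613 in the others), S100a10 124 CPM in DN+NaB replicate 1 (96.5 to 97.7) and Wnk1 787 CPM in DN+NaB replicate 4 (685 to 700).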

How the results depend on the processing

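Of 600 refits of the 10 genes' fold changes, 567 kept direction and side of the threshold, 8 changed sign, 18 lost and 7 gained a call. In DN+NaB against NC, Calb1 was not called by library size only (0.41), with no filter on low counts (0.51), with at least 1 CPM in 4 libraries (0.49) or with the replicate block (0.53), and Atp2b4 was called by DESeq2 (0.35) and with the replicate block (0.36). Cnnm2 changed sign in DN+NaB against DN by library size only (-0.0030). With 1 library left out, log2 fold changes in DN+NaB against NC ran from 0.46 to 0.58 for Calb1, -0.43 to -0.37 for Trpv5, -0.51 to -0.24 for Trpm6 and 0.26 to 0.44 for Atp2b4. In DN against NC they ran from -0.62 to -0.25 for S100g, -0.40 to -0.24 for Trpv5 and -0.21 to 0.10 for Atp2b1 (0.053 and 0.048 without DN replicate 2 and 3 and 0.097 without NC replicate 4). In DN+NaB against DN they ran from -0.12 to 0.015 for Casr and -0.033 to 0.095 for Cnnm2 (-0.032 without DN+NaB replicate 2, -0.026 without DN replicate 1 and -0.033 without DN replicate 4). The count of the 10 called lower ran from 1 to 2 in both comparisons with NC. Cause of these shifts was not tested.

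Counts over all genes moved by over 1.5 times in places. DN+NaB against DN gave 2 higher and 2 lower, against 84 and 173 by DESeq2, 30 and 37 without DN replicate 3, and 0 and 0 with the 8 libraries of the groups compared. In DN against NC, 669 were higher, against 1031 by DESeq2 and 409 or 428 without NC replicate 1 or 3. For DN+NaB against NC, 1161 were higher, against 1783 with 8 libraries, and 1568 lower, against 1043 without DN+NaB replicate 2. Library size only moved the median of all genes to -0.12 in DN+NaB against NC. Called members of the related lists varied from 0 to 6 per direction over the settings. Labels give no pairing; same-numbered libraries' deviations correlated at -0.25 to 0.27, and 5 of 12 libraries were closest to one of their own number.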
